A study of Homo sapiens with 3 samples.

Results

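The miR-29 family was followed through both arms of its 4 hairpin precursors. Its 7 mature members were chosen by their names, miR-29a-3p, miR-29b-3p and miR-29c-3p from the 3p arm and miR-29a-5p, miR-29b-1-5p, miR-29b-2-5p and miR-29c-5p from the 5p arm, and stand at 8 of the 2813 listed loci, as 7 of 2588 mature miRNAs. Parental cells of the cancer lines C643 (thyroid), ES-2 (ovary) and Huh-7 (liver) were grown in DMEM with fetal bovine serum and harvested 48 h after seeding, with no agent named in the labels, and 50 ng of total RNA of each entered a NEXTflex small RNA library for Illumina sequencing. Each line was represented by 1 library, so no difference between lines has a replicate check, no test between lines was made, and every interval below covers counting error only.

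MicroRNAs pair with messenger RNAs mainly through their seed, bases 2 to 8, and lower the stability and translation of these targets. The miR-29 3p products are known to repress collagens, elastin and other matrix genes, the DNA methyltransferases DNMT3A and DNMT3B and the survival factor MCL1, and they are mostly described as tumor suppressors. The transcription factor MYC is known to repress their genes. MIR29A and MIR29B1 form a cluster on chromosome 7, MIR29C and MIR29B2 a second one on chromosome 1. The mature miR-29b-3p is identical from both clusters, whereas the 5p arms of the 29b hairpins differ, so that these 5p arms can tell the clusters apart.

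All 7 members were found in the RefSeq table of GRCh38.p14. Their mature sequences are shown 5′ to 3′ with the seed in capitals, since the members share it on the 3p arm only and since single bases separate products whose levels differ widely.
hsa-miR-29a-3p: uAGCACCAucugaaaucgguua
hsa-miR-29b-3p: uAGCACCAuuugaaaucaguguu
hsa-miR-29c-3p: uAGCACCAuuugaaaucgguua
hsa-miR-29a-5p: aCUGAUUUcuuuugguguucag
hsa-miR-29b-1-5p: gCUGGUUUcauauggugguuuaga
hsa-miR-29b-2-5p: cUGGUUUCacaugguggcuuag
hsa-miR-29c-5p: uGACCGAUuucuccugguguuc

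The 3 members of the 3p arm shared the seed AGCACCA, which no other of the 2370 mature miRNAs in that table had. miR-29a-3p and miR-29c-3p differed at a single base, C10U, counted from 1 at the 5′ end of miR-29a-3p. miR-29b-3p differed from miR-29a-3p at 4 bases of 22 aligned, C10U, G18A, U21G and A22U. From base 18 on, miR-29b-3p carried AGUGUU, an element known from work on its import into the nucleus. None of the other 6 members held these letters, which occur in 13 (0.549%) of the 2370 mature miRNAs. On the 5p arm each member had a seed of its own. miR-29b-1-5p and miR-29b-2-5p were offset by 1 base at the start and differed at U11C and U19C, counted on miR-29b-1-5p.

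The precursors of 29b are shown with both mature arms in capitals, because their 3p arms are the same and their 5p arms are not.
MIR29B1: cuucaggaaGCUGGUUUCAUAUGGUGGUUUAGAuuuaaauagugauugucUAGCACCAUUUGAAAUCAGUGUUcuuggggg
MIR29B2: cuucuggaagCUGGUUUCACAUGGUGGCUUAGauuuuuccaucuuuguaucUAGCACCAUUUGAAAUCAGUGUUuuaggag

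On GRCh38, MIR29A lies at chr7:130876747-130876810 and MIR29B1 at chr7:130877459-130877539, 648 bases apart on the minus strand. In GENCODE version 29, MIR29B1 lies inside an exon of LINC-PINT, a long non-coding RNA, which overlaps MIR29A by 2 bases. Both hairpins also fall between exons of AC016831.6 on the same strand and of LINC00513 on the opposite strand. MIR29C lies at chr1:207801852-207801939 and MIR29B2 at chr1:207802443-207802523, 503 bases apart on the minus strand, both within an exon of the host gene MIR29B2CHG. The deposited tables give the same chromosomes.

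The libraries held 1663181 reads on listed miRNAs in ES-2, 8183100 in C643 and 2173587 in Huh-7, which were recovered as whole reads from the deposited values. The share of a miRNA is its reads over these totals, given with a Wilson 95% interval. A miRNA with 0 reads could hold up to 3 reads, or a share of 0.00018%, 3.67e-05% and 0.000138% in that order of the lines. As a check of the labels, 4 hepatocyte miRNAs (miR-122-5p, miR-885-5p, miR-192-5p and miR-194-5p) summed to 15.5% of reads in Huh-7, 0.0207% in C643 and 0.0132% in ES-2. 5 epithelial miRNAs of the miR-200 family summed to 0.382% in Huh-7, 0.00125% in C643 and 0.00523% in ES-2. Markers of thyroid or ovary were not examined. Of 4 blood cell miRNAs, miR-142-3p had 542 reads in ES-2, whereas miR-451a had 1, and the 4 summed to 543 reads in ES-2, 0 in C643 and 1 in Huh-7. The part of blood cell RNA in the ES-2 values was not tested. 3 muscle miRNAs summed to at most 28 reads in any library.

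miR-29a-3p carried the family. It had 42639 reads in ES-2, 89263 in C643 and 4197 in Huh-7. Its share was 2.56% in ES-2 (2.54 to 2.59), 1.09% in C643 (1.08 to 1.10) and 0.193% in Huh-7 (0.187 to 0.199). It ranked 8 among all miRNAs in ES-2, 16 in C643 and 52 in Huh-7. The order ES-2, C643, Huh-7 was thus separated at each step by more than counting error.

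miR-29b-3p, the product of both clusters, was far less abundant. It had 635 reads in ES-2, 506 in C643 and 17 in Huh-7. In the same order, these gave shares of 0.0382% (0.0353 to 0.0413), 0.00618% (0.00567 to 0.00675) and 0.000782% (0.000488 to 0.00125). The lines stood in the same order as for miR-29a-3p, and no intervals overlapped.

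miR-29c-3p, which differs from miR-29a-3p by the single base given above, was lower still. It had 44 reads in ES-2, 99 in C643 and 28 in Huh-7, or shares of 0.00265% (0.00197 to 0.00355), 0.00121% (0.000994 to 0.00147) and 0.00129% (0.000891 to 0.00186). ES-2 was highest, and the intervals of C643 and Huh-7 overlapped. Whether reads of the abundant miR-29a-3p were counted as miR-29c-3p was not tested.

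Together the 3p arms held 2.60% of miRNA reads in ES-2 (2.58 to 2.63), 1.10% in C643 (1.09 to 1.11) and 0.195% in Huh-7 (0.189 to 0.201). For each read of the 3p arms there were 10.8 reads of miR-21-5p, the miRNA that the study's decoys bind, in ES-2, 26.1 in C643 and 171 in Huh-7. miR-29a-3p made up 98.4% of the 3p sum in ES-2 (98.31 to 98.55), 99.3% in C643 (99.27 to 99.38) and 98.9% in Huh-7 (98.58 to 99.21). In the same order, this left 1.47%, 0.563% and 0.401% for miR-29b-3p, and 0.102%, 0.110% and 0.660% for miR-29c-3p.

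Within the family the minor members moved apart between lines. miR-29b-3p per read of miR-29a-3p exceeded its value in Huh-7 by 3.68-fold in ES-2 (95% interval 2.27 to 5.96) and was 2.63-fold above C643 there (2.34 to 2.95), whereas the interval of C643 over Huh-7 included 1 (1.40-fold, 0.862 to 2.27). miR-29c-3p per read of miR-29a-3p was highest in Huh-7, 6.47-fold above ES-2 (4.02 to 10.4) and 6.02-fold above C643 (3.95 to 9.16). Both quantities compare products counted in the same column, so no factor between libraries enters them. The Huh-7 values rest on 17 and 28 reads. Per read of miR-29a-3p, miR-29c-3p stood at 0.00103 in ES-2, 0.00111 in C643 and 0.00667 in Huh-7. What part of these values was miscounted miR-29a-3p was not tested.

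**Figure D1:**
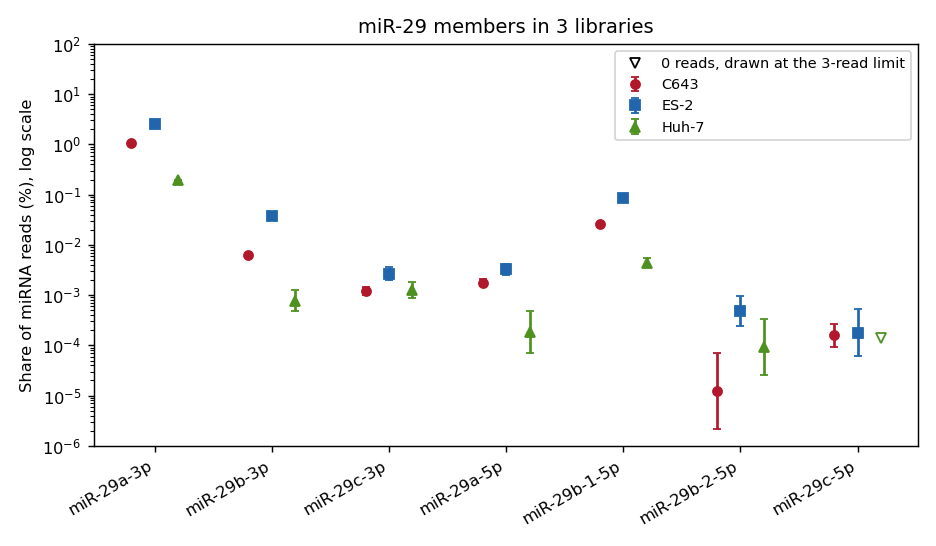
Share of miRNA reads (%, log axis) of each miR-29 member in the C643 (circle), ES-2 (square) and Huh-7 (triangle) library, with Wilson 95% intervals. miR-29a-3p stands above all other members in each library, from 0.193% in Huh-7 to 2.56% in ES-2, and miR-29c-5p without a read in Huh-7 is drawn open at the limit of 3 reads.

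The 5p arms were examined next, since they separate the clusters. The most abundant was miR-29b-1-5p, from the chromosome 7 hairpin shown above, with 1421 reads in ES-2, 2163 in C643 and 96 in Huh-7. Its share was 0.0854% (0.0811 to 0.0900) in ES-2, 0.0264% (0.0253 to 0.0276) in C643 and 0.00442% (0.00362 to 0.00539) in Huh-7. It ranked 66, 106 and 239 in these libraries and was second within the family in each.

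miR-29a-5p, the partner of miR-29a-3p, had 54 reads in ES-2, 146 in C643 and 4 in Huh-7. In the same order, the shares were 0.00325% (0.00249 to 0.00424), 0.00178% (0.00152 to 0.00210) and 0.000184% (7.16e-05 to 0.000473). The lines again stood in the order ES-2, C643, Huh-7 with no overlap.

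The 5p arms of chromosome 1 were at the limit of these libraries. miR-29b-2-5p had 8 reads in ES-2, 1 in C643 and 2 in Huh-7. miR-29c-5p had 3 reads in ES-2, 13 in C643 and 0 in Huh-7. For miR-29c-5p the interval of ES-2 (6.13e-05 to 0.000530) contained the share in C643 (0.000159%), so no order of the lines was detectable at this depth. For miR-29b-2-5p the ES-2 interval (0.000244 to 0.000949) lay above that of C643 (2.16e-06 to 6.92e-05) and overlapped that of Huh-7 (2.52e-05 to 0.000336).

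In C643 all 7 members had intervals apart from their neighbours in rank. In ES-2 those of miR-29a-5p and miR-29c-3p overlapped, as did those of miR-29b-2-5p and miR-29c-5p. In Huh-7 miR-29c-3p and miR-29b-3p overlapped, and the 3 lowest 5p arms could not be ordered.

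The chromosome 7 cluster supplied nearly all 5p reads. miR-29a-5p and miR-29b-1-5p made up 1475 of 1486 reads of the 5p arms in ES-2 (99.3%, 98.68 to 99.59), 2309 of 2323 in C643 (99.4%, 98.99 to 99.64) and 100 of 102 in Huh-7 (98.0%, 93.13 to 99.46). Between the 29b hairpins alone, MIR29B1 gave 99.4% of the 5p reads in ES-2 (98.90 to 99.72), 99.95% in C643 (99.74 to 99.99) and 98.0% in Huh-7 (92.86 to 99.44). Between miR-29a-5p and miR-29c-5p, the former had 94.7% in ES-2 (85.63 to 98.19), 91.8% in C643 (86.51 to 95.16) and 4 of 4 reads in Huh-7. Both pairs of arms therefore placed most 5p reads on chromosome 7 in C643 and ES-2. The 4 reads in Huh-7 left an interval of 51.01 to 100%. These are splits of 5p reads and do not measure the output of the clusters, since the hairpins differed in arm use. The 5p part of the reads of both arms was 0.163% for 29a and 11.6% for 29c in C643. In ES-2 it was 0.126% and 6.38%. Whether reads of one 29b 5p arm were counted as the other, which is nearly the same in sequence, was not tested.

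The 3p reads of 29b did not follow this split. Of the miR-29b-3p reads, 244 stood at the chromosome 7 locus and 262 at the chromosome 1 locus in C643, so chromosome 7 had 48.2% (43.90 to 52.57). It had 53.9% in ES-2 (342 and 293 reads, 49.97 to 57.70) and 41.2% in Huh-7 (7 and 10 reads, 21.61 to 63.99). The intervals included 50% in each library. The mature sequences at the loci are identical, and how reads that match several loci were assigned is not given in the sources used here. The reads at the loci of miR-29b-3p therefore carry no measure of its cluster of origin.

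**Figure D2:**
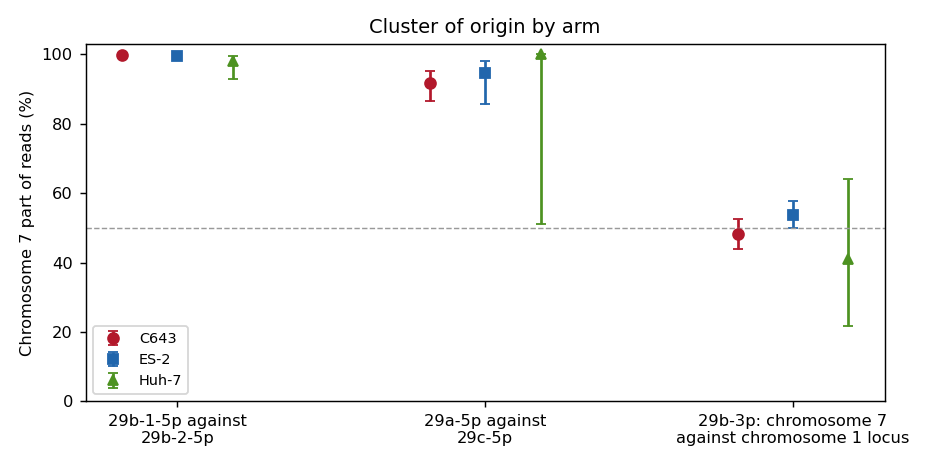
Part of the reads from chromosome 7 (%) for miR-29b-1-5p against miR-29b-2-5p, for miR-29a-5p against miR-29c-5p, and for the loci of miR-29b-3p, with Wilson 95% intervals by library (C643 circle, ES-2 square, Huh-7 triangle). The 29b 5p arms lie between 98.0 and 99.95%, whereas the 29b-3p loci lie between 41.2 and 53.9%, around the dashed line at 50%.

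The arm with more reads was 3p for 29a and 29c and 5p for 29b, whose hairpins cannot be told apart on the 3p arm. For 29a the 3p arm exceeded the 5p arm 790-fold in ES-2 (exact 95% interval 605 to 1051), 611-fold in C643 (520 to 724) and 1049-fold in Huh-7 (409 to 3853). For 29c the 3p arm led by 7.62-fold in C643 (4.25 to 14.8) and, from 44 and 3 reads, by 14.7-fold in ES-2 (4.70 to 73.8). In Huh-7, 28 reads of miR-29c-3p stood against none of miR-29c-5p.

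For 29b the 5p arm led, although the 3p arm is the one usually named as the active product. miR-29b-1-5p alone exceeded miR-29b-3p, summed over both loci, by 2.24-fold in ES-2 (2.04 to 2.46), 4.27-fold in C643 (3.88 to 4.72) and 5.65-fold in Huh-7 (3.35 to 10.1). The 5p part of all 29b reads was 69.2% in ES-2 (67.21 to 71.19), 81.0% in C643 (79.52 to 82.49) and 85.2% in Huh-7 (77.60 to 90.56). Relative to miR-29b-3p, miR-29b-1-5p was 1.91-fold higher in C643 than in ES-2 (1.67 to 2.19) and 2.52-fold higher in Huh-7 than in ES-2 (1.49 to 4.26). Reads of miR-29b-3p match both loci, whereas the 29b 5p arms differ. Whether the unknown handling of such reads lowered the 3p counts, and so raised the lead of the 5p arm, was not tested.

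For comparison, other arm pairs were taken from RefSeq precursors, with both arms listed and at least 100 reads in total. Only pairs whose arms occur in no other pair were kept, so hairpins that share an arm, as those of 29b do, were left out. The set is thus a part of all precursors. Among those absent from it although both of their arms were listed are miR-21, miR-221, miR-148a, miR-28 and miR-483. In C643 the 5p arm led in 81 and the 3p arm in 70 of 151 such pairs, in ES-2 in 56 and 36 of 92, and in Huh-7 in 69 and 56 of 125. The 5p part lay between 20 and 80% in 8 of these pairs in ES-2, 29 in C643 and 19 in Huh-7. A 5p part below that of 29a was found in 6, 24 and 11 of these pairs in the same order.

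**Figure D3:**
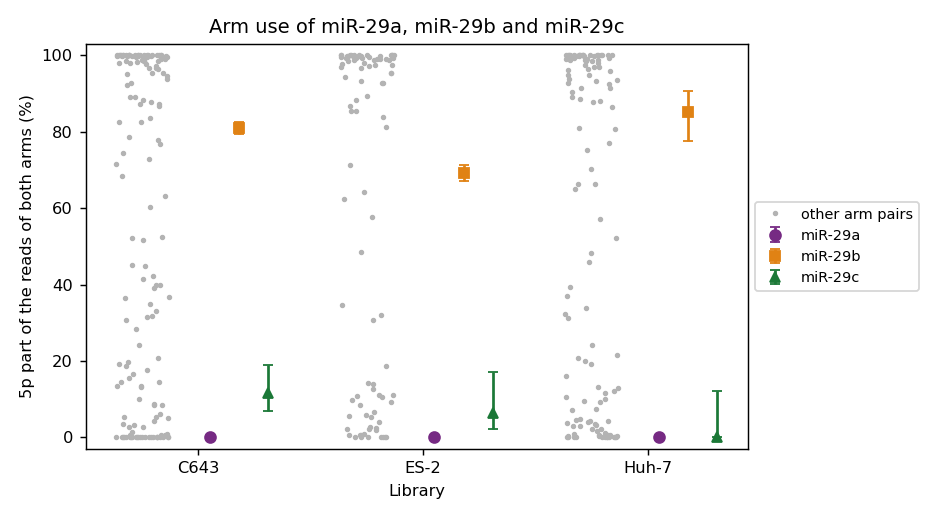
The 5p part of the reads of both arms (%) for miR-29a (circle), miR-29b (square) and miR-29c (triangle) in each library, with Wilson 95% intervals. Grey points, spread sideways for legibility, are the other arm pairs kept for comparison. Each had at least 100 reads and no arm name in another listed pair. miR-29b stands at 69.2 to 85.2%, whereas miR-29a lies below 1% in each library.

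The products of 1 cluster were also set against each other. miR-29a-3p exceeded miR-29b-1-5p by 30.01-fold in ES-2 (28.5 to 31.7), 41.3-fold in C643 (39.5 to 43.1) and 43.7-fold in Huh-7 (35.7 to 54.1). The ratio was lower in ES-2 than in the other lines, and those of C643 and Huh-7 overlapped. Over the same lines the share of miR-29a-3p varied over a 13.3-fold range.

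Levels were then compared between lines on the deposited scale, as log2(value + 1), where the value is the number of reads times a library factor set by the authors. ES-2 and Huh-7 lie in the same table. The C643 library was deposited in a separate table and may have been normalized separately, so its differences are only described. A log2 difference of 2 or more counted as 4-fold, among miRNAs at 10 or more in either library. Scaling to the library total instead lowers each log2 ratio of ES-2 to Huh-7 by 0.92 and of C643 to Huh-7 by 0.65, and raises that of C643 to ES-2 by 0.27.

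Between ES-2 and Huh-7, miR-29a-3p stood at 29599 and 1182, a log2 difference of 4.65 or 25.0-fold. By share the fold was 13.3 (12.9 to 13.7). The main product of the family was thus far higher in ES-2, at a fold that depends on the scaling. miR-29b-3p stood at 441 and 4.79, a difference of 6.25, and was 48.8-fold higher by share (30.2 to 84.3). miR-29b-1-5p stood at 986 and 27.0, a difference of 5.14, and was 19.3-fold higher by share (15.7 to 24.0). miR-29a-5p, at 37.5 and 1.13, differed by 4.18, and by 17.6-fold by share (6.51 to 67.1). These members, 3 of them from chromosome 7 alone, were all higher in ES-2 by more than 4-fold on either scale.

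miR-29c-3p, from chromosome 1, differed less, standing at 30.5 in ES-2 against 7.88 in Huh-7. The log2 difference was 1.83, below the 4-fold limit, and by share the fold was 2.05 (1.25 to 3.43). With the median ratio over miRNAs set to 0 the log2 difference was 2.11, above the limit, so the side on which miR-29c-3p fell depended on the scaling. miR-29b-2-5p and miR-29c-5p stayed below 10 in each library and did not enter the comparison. Of 390 miRNAs compared, 47.2% passed 4-fold, 19.5% with the higher level in ES-2 and 27.7% with the higher level in Huh-7. Of the 5 members that entered, 4 passed 4-fold towards ES-2 and 0 towards Huh-7. miR-29b-3p, miR-29a-5p and miR-29c-3p entered only through their level in ES-2 and were bound to be higher there, so this count carries no weight for them. A difference as high as that of miR-29a-3p was found in 46 of the 390 miRNAs, itself included, and as high as that of miR-29b-1-5p in 39.

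**Figure D4:**
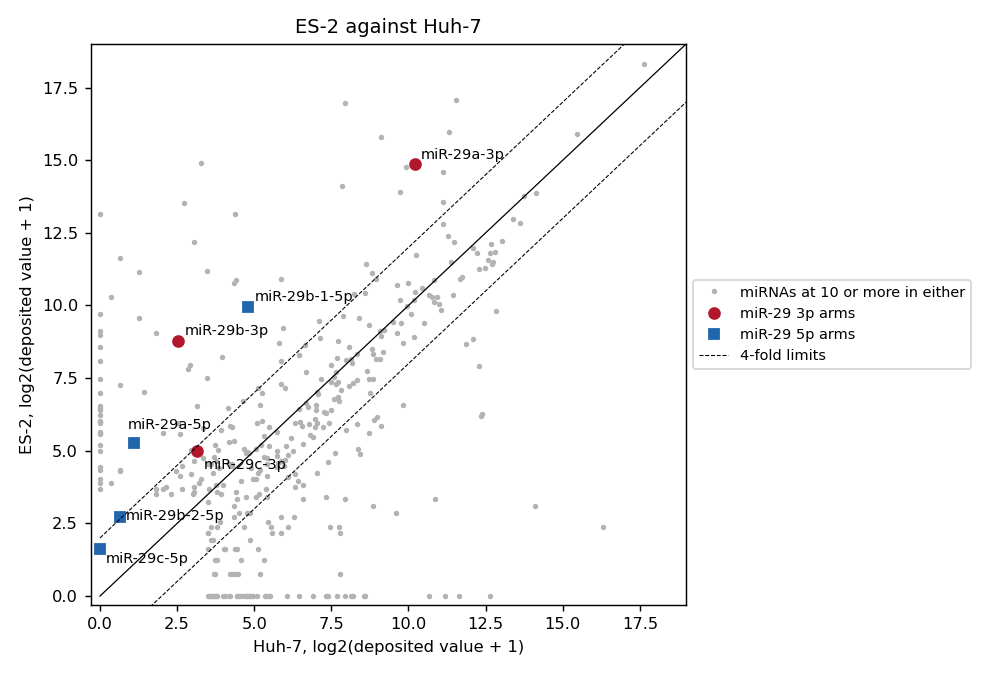
Levels of miRNAs that reach 10 in either of the lines ES-2 and Huh-7 (grey points) and of all miR-29 members (3p arms circles, 5p arms squares), as log2(deposited value + 1) in Huh-7 on the x axis and ES-2 on the y axis, with the line of equality and dashed lines at 4-fold. miR-29a-3p, miR-29b-3p, miR-29a-5p and miR-29b-1-5p lie above the upper 4-fold line, at 4.18 to 6.25 from equality, and miR-29c-3p lies below it at 1.83 on this scale.

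C643 stood between the other lines for miR-29b-3p and the members of the chromosome 7 cluster. Against Huh-7, miR-29a-3p at 10464 in C643 gave a log2 difference of 3.15, and by share 5.65-fold (5.48 to 5.83). miR-29b-1-5p, at 254, gave 3.183, or 5.98-fold by share (4.88 to 7.42). The intervals of these 2 members of the chromosome 7 cluster overlapped by share. miR-29b-3p, at 59.3, gave 3.38, or 7.91-fold by share (4.89 to 13.7). miR-29a-5p, at 17.1, gave 3.09, or 9.70-fold by share (3.71 to 36.1).

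For miR-29c-3p, at 11.6 in C643, the log2 difference to Huh-7 was 0.50 on the deposited scale and -0.09 by share (0.939-fold, 0.612 to 1.48), so its direction turned with the scaling. Of 399 miRNAs compared for C643 against Huh-7, 47.6% passed 4-fold, 22.6% towards C643 and 25.1% towards Huh-7. Of the 5 members that entered, 4 passed towards C643 and 0 towards Huh-7, and miR-29b-3p, miR-29a-5p and miR-29c-3p entered only through their level in C643. With a pseudocount of 10 the difference of miR-29a-5p was 1.29, below the limit, so that 3 members passed.

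C643 and ES-2 were closer to each other. miR-29a-3p was lower in C643, with a log2 difference of -1.50, and its share was 0.425 of that in ES-2 (0.421 to 0.430). miR-29b-1-5p differed by -1.956, miR-29a-5p by -1.09 and miR-29c-3p by -1.32. miR-29b-3p differed most, by -2.87, and was the 1 member past 4-fold, in a comparison in which 26.2% of 351 miRNAs passed, 10.8% towards ES-2 and 15.4% towards C643.

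Other miRNAs with roles near those of miR-29 were grouped in 3 lists. Of 16 miRNAs that MYC is known to repress, 15 entered the comparison of ES-2 with Huh-7, where 3 passed 4-fold towards ES-2, 2 towards Huh-7 and 10 did not pass, beside 19.5% and 27.7% of all 390 miRNAs that passed in these directions. Their median log2 difference was -0.28, against -0.54 over all 390 miRNAs. Those towards ES-2 were members of the let-7 family of growth-restraining miRNAs, such as let-7d-5p with 3320 reads in ES-2 against 36 in Huh-7, a difference of 7.69. Those towards Huh-7 were the p53-induced miR-34a-5p, with 6 reads in ES-2 against 619 in Huh-7 (-5.08), and the immune regulator miR-146a-5p (-3.23). Of these, miR-34a-5p entered only through its level in Huh-7 and was bound to be higher there. Between C643 and Huh-7, 3 of 15 passed towards C643 and 2 towards Huh-7, beside 22.6% and 25.1% of all miRNAs, with a median of -0.14 against -0.21. Both towards Huh-7, miR-34a-5p and miR-497-5p, entered only through their level in Huh-7. Between C643 and ES-2, 1 of 14 passed towards each line, beside 15.4% of all miRNAs towards C643 and 10.8% towards ES-2, and the median was -0.09 against 0.07. The 1 towards ES-2, miR-497-5p, entered only through its level in ES-2.

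7 miRNAs have been described as acting on DNA methyltransferases or their partners, as miR-29 does. All 7 entered, and between ES-2 and Huh-7 0 passed 4-fold towards ES-2 and 2 towards Huh-7, while 5 did not pass, beside 19.5% and 27.7% of all miRNAs, so that the count towards Huh-7 lay near that of all miRNAs. The median was -0.70 against -0.54. The 2 were miR-148a-3p, at 7.64 in ES-2 against 17559 in Huh-7 (-10.99), and miR-143-3p, at 9.02 and 244 (-4.61). Both entered only through their level in Huh-7 and were bound to be higher there, so this count carries no weight. miR-152-3p, which shares its family with miR-148a-3p, differed by 1.98. Summed, the list held 3.46% of reads in Huh-7, of which miR-148a-3p alone held 2.87%, 0.644% in C643 and 0.319% in ES-2. Between C643 and Huh-7, 1 was higher in C643 (miR-143-3p, 3.31) and 1 in Huh-7 (miR-148a-3p, -5.07), beside 22.6% and 25.1% of all miRNAs, with a median of 0.21 against -0.21. Between C643 and ES-2, 2 were higher in C643 and 0 in ES-2, beside 15.4% and 10.8% of all miRNAs, with a median of 0.00030 against 0.07. These were again miR-148a-3p and miR-143-3p, which entered only through their level in C643 and were bound to be higher there.

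Of 10 miRNAs linked to matrix and fibrosis, 8 entered between ES-2 and Huh-7, and the median was 0.88 against -0.54. This list shares miR-26a-5p and miR-34a-5p with the first list and miR-101-3p with the second. 3 passed 4-fold towards ES-2, namely the inflammation-linked miR-155-5p with 12992 and 0 reads (at least 10677-fold on the deposited scale), miR-199a-5p of mesenchymal cells with 1096 and 5 reads (8.31), and miR-30a-5p (6.68). Another 2 passed towards Huh-7, miR-34a-5p and miR-200b-3p, a guard of the epithelial state (-7.53). Over all miRNAs 19.5% and 27.7% passed in these directions. Of the listed miRNAs that passed, only miR-30a-5p reached 10 in both lines. The others entered only through the line in which they were higher, so their direction was fixed by the filter and their counts carry no weight. miR-21-5p, miR-26a-5p and miR-101-3p were in neither group. Between C643 and Huh-7, 4 of 9 passed towards C643 and 2 towards Huh-7, beside 22.6% and 25.1% of all miRNAs, with a median of 0.43 against -0.21. Of these, miR-155-5p, miR-199a-5p and miR-214-3p entered only through C643 and miR-34a-5p only through Huh-7. Between C643 and ES-2, 1 of 8 was higher in C643, miR-214-3p with 1050 and 0 reads (at least 59.1-fold), and 0 in ES-2, beside 15.4% and 10.8% of all miRNAs, and the median was -0.62 against 0.07. Here miR-214-3p entered only through its level in C643.

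The miRNAs most like each 3p member in pattern were sought among 128 miRNAs outside the family with at least 100 reads in each library. Likeness was measured by the root mean square difference of log2 share centred over the 3 libraries. Nearest to miR-29a-3p were miR-222-3p (0.19), miR-125b-5p (0.29) and miR-221-3p (0.32). miR-222-3p held 5.54% of reads in ES-2, 3.12% in C643 and 0.413% in Huh-7. Within the family, miR-29b-1-5p was as near to miR-29a-3p (0.24), miR-29b-3p was farther (0.80) and miR-29c-3p farthest of the 3 (1.25). Outside the family, the nearest to miR-29b-3p was miR-221-3p (0.85), whereas miR-29b-1-5p (0.56) and miR-29a-3p (0.80) were nearer. miR-29c-3p lay nearest to let-7c-5p (0.03), miR-424-5p (0.23) and miR-378a-3p (0.25). However, miR-29b-3p had 17 reads in Huh-7, and miR-29c-3p had 44 in ES-2, 99 in C643 and 28 in Huh-7. These lie below the 100 reads required of the candidates, and the counting error of their distances was not estimated. With 3 libraries, a likeness of this kind rests on 3 points and is a description only.

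**Figure D5:**
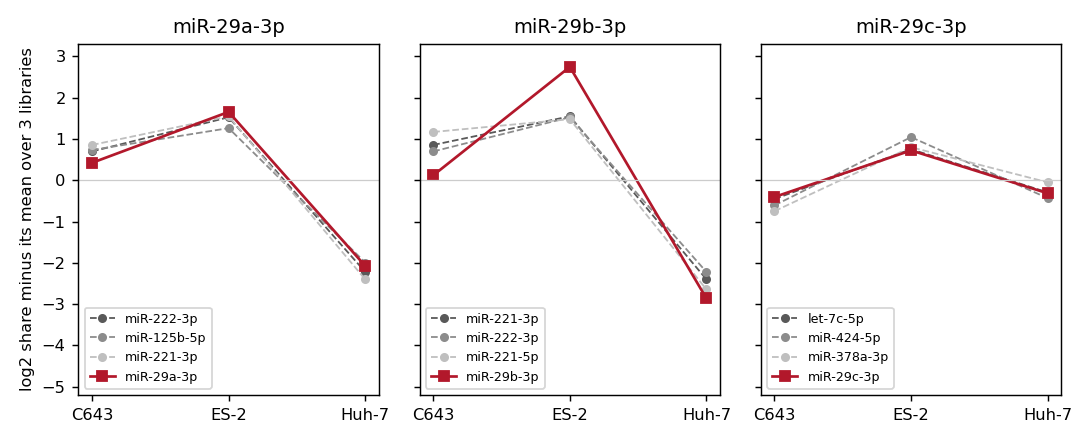
Log2 share minus its mean over the 3 libraries (y axis) in C643, ES-2 and Huh-7, with lines joining the values of 1 miRNA. Red squares are miR-29a-3p, miR-29b-3p and miR-29c-3p, and grey circles the 3 miRNAs outside the family nearest to each. miR-29a-3p and its neighbours lie lowest in Huh-7 (-2.08 for miR-29a-3p), whereas miR-29c-3p spans only -0.41 to 0.72.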

How the data were processed

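Small RNA of 3 cell lines, 1 library each, was deposited by the authors as 2 tables of a signal, reads per miRNA locus times a library factor, under the name CPM. The columns sum to 959302 (C643), 1154552 (ES-2) and 612015 (Huh-7), not to 1000000. The submitters' processing notes name cutadapt 1.14, Bowtie2 2.3.3, SAMtools 1.5, featureCounts 1.5.3, edgeR 3.18.1 and hg38. The annotation version, the treatment of reads matching more than 1 locus and any removal of random adapter bases are not given in the sources used here.

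Each nonzero value was a whole multiple of the smallest in its column (within 0.001 of a read for 100% of values), 0.117, 0.694 and 0.282 per read, which gave whole reads. If reads are PCR copies of fewer molecules, intervals are too narrow. Loci were summed per mature miRNA (Python 3.11.15, scipy 1.17.1). Shares have Wilson 95% intervals, ratios exact conditional binomial intervals and ratios of ratios log-normal ones. With 1 library per line, no count test was possible, and 0 value columns were left unmapped. The pseudocount was 1 and the filter a value of 10. Steps were tested on simulated data. Members, lists and alternatives were chosen with earlier results of these data known. Named were all members, the extremes of the lists, list members a result turned on and the 3 nearest non-family miRNAs per 3p member.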

Additional observations from a re-analysis of the deposited data

How the results depend on the processing

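No paired analysis was possible because no line had a second library. Of 60 values recomputed under alternatives, 23 stayed within counting error or within 1.5 times of a count, 37 moved and 0 reversed. Values follow for C643, ES-2 and then Huh-7. The share of the 3p arms was 1.54%, 3.63% and 0.293% without miR-21-5p in the denominator, 1.05%, 3.01% and 0.119% over 1000000, and 1.32%, 3.03% and 0.214% with the highest single locus of each miRNA, so the order of the lines held in each of these settings. The miR-29a-3p part of the 3p sum was 99.6% in C643 and 99.1% in ES-2 with the highest single locus. With miR-29c-3p left out, a setting added once the values were known, it was 99.4% in C643 and 99.6% in Huh-7. The chromosome 7 part from miR-29a-5p and miR-29c-5p alone was 91.8%, 94.7% and 100%, the last from 4 reads, and the same values stand in place of the 29b arms, likewise added once the values were known. The 3p to 5p ratio of the whole family, 38.7, 29.2 and 41.6, became 562, 749 and 1056 for 29a and 29c alone, since 29b leads on the 5p arm.

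The log2 difference of the 3p sum was 4.65 for ES-2 minus Huh-7, 3.74 scaled to the library total and 4.94 with the median ratio set to 0. For C643 minus ES-2 it was -1.51, -1.25 and -1.48, and for C643 minus Huh-7 3.14 and, scaled to the library total, 2.49. The miRNAs at least 4-fold apart numbered 184 for ES-2 against Huh-7, 122 with a pseudocount of 10, 90 at a filter of 100 and 286 without a filter. For C643 against ES-2 they numbered 92, then 46, 34 and 205, and 204 at 2-fold. For C643 against Huh-7 they numbered 190, then 122, 98 and 314. Scaled to the library total, the part of these towards ES-2 rather than Huh-7 went from 41.3% to 26.4% and the part towards C643 rather than Huh-7 from 47.4% to 32.9%. With a pseudocount of 10 these parts were 50.8% and 54.9%, and at a filter of 100 53.3% and 55.1%. The part towards C643 rather than ES-2 went from 58.7% to 47.8% with a pseudocount of 10. Which line had more of these miRNAs thus depended on the setting in each pair. Among members, the direction of miR-29c-3p between C643 and Huh-7 turned when scaled to the library total. No other member's direction turned under the 4 scalings and pseudocounts tried. The 4-fold limit was crossed by miR-29c-3p between ES-2 and Huh-7 with the median ratio set to 0 (2.11) and was no longer reached by miR-29a-5p between C643 and Huh-7 with a pseudocount of 10 (1.29). Depth limited miR-29b-2-5p and miR-29c-5p in each library, and in Huh-7 each member but miR-29a-3p and miR-29b-1-5p.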
